A study of Mus musculus with 6 samples.

Results

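The type I interferon-stimulated genes are described here through 31 members, chosen by name as genes that interferon alpha and beta are known to induce. All 31 had a row among the 23494 genes of the deposited table. Expression was measured by RNA sequencing in 6 libraries from wild type female C57BL/6 mice that all carried B16F10 tumours, a transplantable mouse melanoma line grown under the skin of the flank. In 3 of these mice recombinant MANF (rMANF, a protein of the endoplasmic reticulum that is also secreted) was injected into the peritoneum every day at 2 µg/kg once tumours averaged about 60 mm3, and 3 mice received phosphate-buffered saline (vehicle). Each arm had 8 randomised mice, and the sources used here do not say how 3 of them were picked for sequencing. The column names of the vehicle libraries begin with IgG, although their labels give saline as the treatment. The question addressed was whether the transcripts that record interferon signalling differed between libraries of rMANF-treated and vehicle-treated mice.

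Type I interferons bind the receptor pair Ifnar1 and Ifnar2, whose kinases Jak1 and Tyk2 activate Stat2 among other factors. Stat2 and Irf9 are parts of the complex ISGF3, which binds the interferon-stimulated response element (ISRE) in promoters, whereas interferon gamma acts mainly through a different element, the gamma-activated site (GAS). The induced genes encode sensors of foreign or misplaced nucleic acid, factors that amplify the response, effectors that block steps of virus replication, and feedback inhibitors. In heart tissue such transcripts are known from viral myocarditis and from infiltrating immune cells.

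The libraries are labelled heart, but held little RNA of heart muscle. Of 10 cardiomyocyte markers 8 had rows, 5 of those averaged under 1 TPM (a transcript's share of the library corrected for its length, on a scale where each library has the same total), and their sum was 10.1 to 12.9 TPM in rMANF libraries and 10.2 to 17.5 TPM in vehicle libraries. Tnnt2 and Tnni3, subunits of cardiac troponin, were the highest at 4.86 to 11.5 and 1.12 to 6.11 TPM. Of 7 melanocyte markers 3 had rows, and these summed to 7.44 to 10.2 TPM with rMANF and 7.96 to 12.6 TPM with vehicle. The 18 macrophage and monocyte markers summed to 2305 to 3249 TPM with rMANF and 3955 to 4508 TPM with vehicle, and all 18 had the lower mean with rMANF. Skeletal muscle markers summed to 7.27 to 22.2 TPM with rMANF and 30.7 to 1364 TPM with vehicle, the highest sum being that of vehicle replicate 2. The groups are therefore called by their labels, and every direction rests on those labels. In bulk tissue, fewer cells of a type and less RNA per cell cannot be told apart.

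Promoters are shown for 8 members, because the ISRE and the GAS are the elements through which interferons act on promoters and because the Ifit3 and Ifit3b copies recur in the results. RefSeq promoter windows on GRCm38.p6, from 250 bases before to 50 bases after the gene start, were found for 22 of the 31 members. The ISRE, searched as GAAA followed after any 2 bases by GAAA, or as TTTC so spaced when read from the other strand, occurred in the windows of 13 of these 22 members (59.1%) and of 3.99% of all 27025 genes with a window. The GAS letters TTCNNNGAA, which read alike on both strands, occurred in 4 of 22 members (18.2%) and in 9.55% of all genes. Of the 4, Oas1a and Bst2 held both elements and Irf1 and Ifit2 the GAS alone, while 7 members (Irf7, Irf9, Oasl1, Oasl2, Cmpk2, Ifi44 and Xaf1) held neither. Matches may overlap one another, and the members were chosen as interferon targets, so these shares describe the list. The stretches below lie upstream of the gene start and are printed 5′ to 3′ on the gene's strand, with ISRE and GAS letters in capitals.
Ifit3, chr19:34583353-34583436, plus strand: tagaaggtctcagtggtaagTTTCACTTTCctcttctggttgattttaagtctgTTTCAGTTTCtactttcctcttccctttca
Ifit3b, chr19:34607749-34607832, plus strand: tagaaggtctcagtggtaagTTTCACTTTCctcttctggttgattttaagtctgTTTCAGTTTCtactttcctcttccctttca
Ifit1, chr19:34640765-34640833, plus strand: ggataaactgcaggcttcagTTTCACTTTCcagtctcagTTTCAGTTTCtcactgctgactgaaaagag
Isg15, chr4:156200855-156200916, minus strand: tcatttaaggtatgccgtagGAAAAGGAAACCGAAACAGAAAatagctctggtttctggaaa
Bst2, chr8:71537567-71537628, minus strand: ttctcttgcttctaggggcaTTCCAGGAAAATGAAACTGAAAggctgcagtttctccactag
Oas1a, chr5:120907526-120907643, minus strand: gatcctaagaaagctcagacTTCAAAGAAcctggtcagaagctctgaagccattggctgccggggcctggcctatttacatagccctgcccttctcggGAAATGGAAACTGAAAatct
Socs1, chr16:10785584-10785639, minus strand: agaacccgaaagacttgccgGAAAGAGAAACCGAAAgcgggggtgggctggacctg
Irf1, chr11:53769904-53769952, plus strand: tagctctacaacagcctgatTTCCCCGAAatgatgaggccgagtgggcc
The Ifit3 and Ifit3b stretches were identical at 84 of 84 bases. Ifit1 carried the same 2 ISRE words closer together, Isg15 carried 3 overlapping ISRE matches, and Bst2 and Oas1a carried a GAS match as well as ISRE matches. Irf1 carried a GAS match and no ISRE match in its windows.

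Most interferon-stimulated genes lay slightly lower in the rMANF libraries, and no single difference passed the test. Of the 31 members, 25 had a log2 difference below 0 and 6 above 0, where 42.7% of the 12865 tested genes lay below 0. The median difference was −0.13 on the log2(TPM + 1) scale over the members and 0.04 over all tested genes, and single members ran from −0.56 for Mx2 to 0.18 for Ifi27. Limma called 0 members and 0% of all tested genes at a Benjamini-Hochberg adjusted p of 0.05, and the lowest adjusted p among members was 0.139. At an unadjusted limma p under 0.05 stood 5 members, Mx2, Zbp1, Ifit3b, Ifit3 and Rtp4, a share of 16.1%, against 20.5% of all tested genes. At an adjusted p of 0.10 limma called 0 members and 2.73% of all tested genes. Macrophage markers, 18 of 18, and T and NK cell markers, 15 of 15, also had lower means with rMANF, and their part in the member values was not tested.

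**Figure D1:**
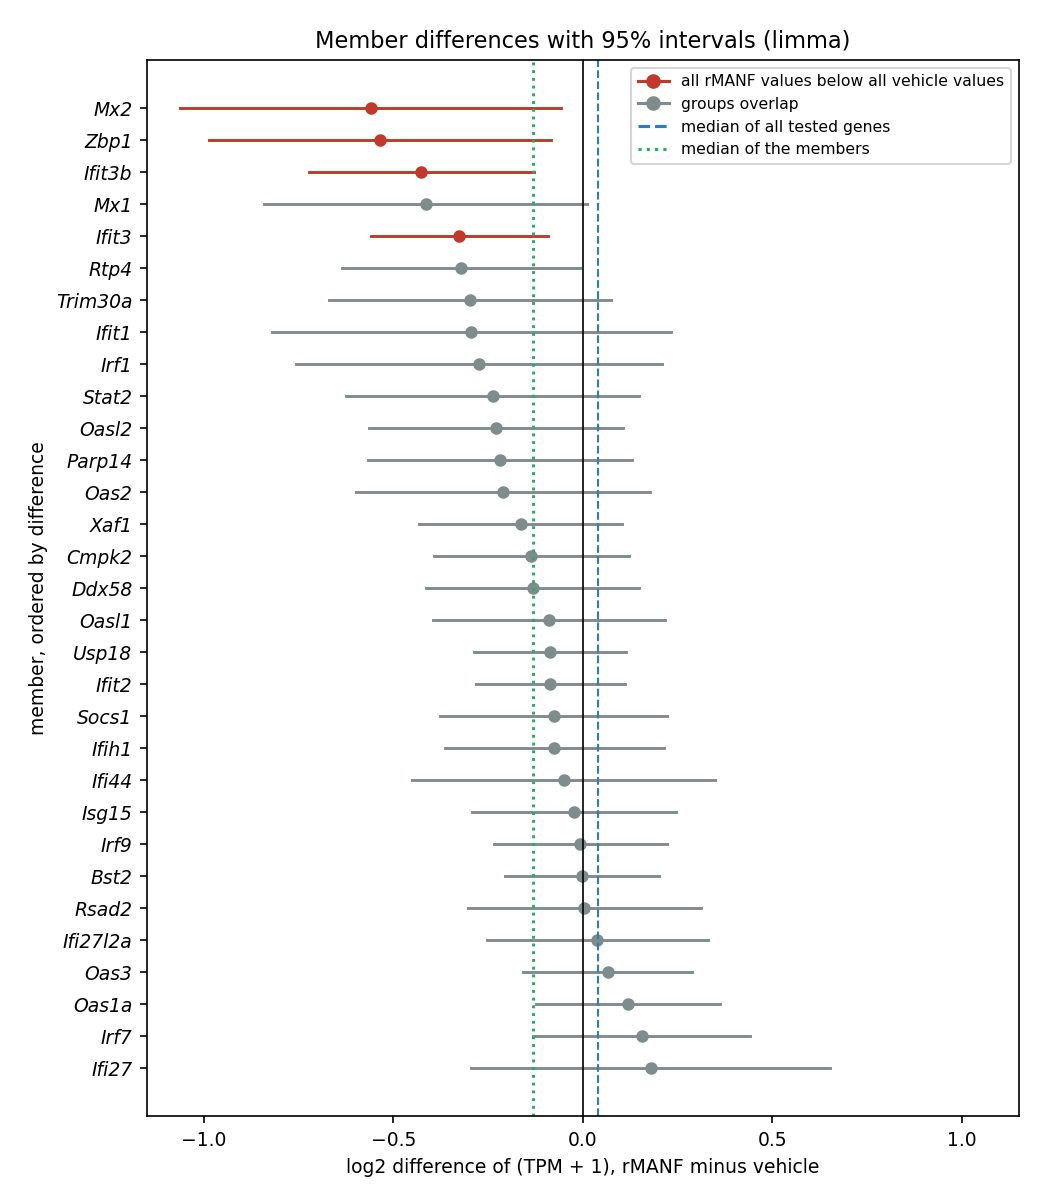
Each point is 1 member's log2 difference of (TPM + 1), rMANF minus vehicle, with its 95% interval from limma (3 libraries per group), ordered from lowest to highest. Red marks the 4 members whose rMANF values all lie below all vehicle values; the dashed line is the median of all tested genes (0.04) and the dotted line that of the members (−0.13).

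The rMANF libraries were all below the lowest vehicle library for 4 of 31 members (12.9%), against 9.02% of all tested genes. These were Mx2, Zbp1, Ifit3b and Ifit3. They were all above the highest vehicle library for 0 members, against 18.9% of all tested genes, and 27 members overlapped between groups. Leaving out a library cannot make separated groups overlap, so these 4 members had to stay separated in all 6 fits that left out 1 library. The number of such members could only hold or rise, and it depended on the library left out. It was 4 without vehicle replicate 1, against 12.9% of all tested genes. It was 7 without rMANF replicate 1, 7 without rMANF replicate 2 and 11 without vehicle replicate 3, where the shares over all tested genes were 12.3%, 14.9% and 13.7%. It was 7 under quantile normalization, against 12.3% of all tested genes.

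Levels spanned a wide range between members. Bst2, which encodes tetherin, a membrane protein that holds budding virus particles at the cell surface, was the most abundant, with 1856, 1595 and 1589 TPM in rMANF replicates 1, 2 and 3, against 1751, 1632 and 1654 TPM in vehicle replicates 1, 2 and 3. Its log2 difference was −0.002 ± 0.09 (SE; limma, adjusted p = 0.992), with a 95% interval from −0.20 to 0.20, so the groups lay on top of each other. Next came Ifi27l2a, a small interferon-induced membrane protein gene, with 850, 785 and 654 TPM in rMANF libraries, against 851, 687 and 690 TPM in vehicle libraries. Isg15, the ubiquitin-like protein that is attached to other proteins, followed with 353, 322 and 324 TPM in rMANF libraries, against 294, 398 and 330 TPM in vehicle libraries. By mean TPM these 3 stood at the 99.2, 98.7 and 97.2 percentiles of all tested genes. The lowest member, Mx2, stood at the 27.7 percentile.

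**Figure D2:**
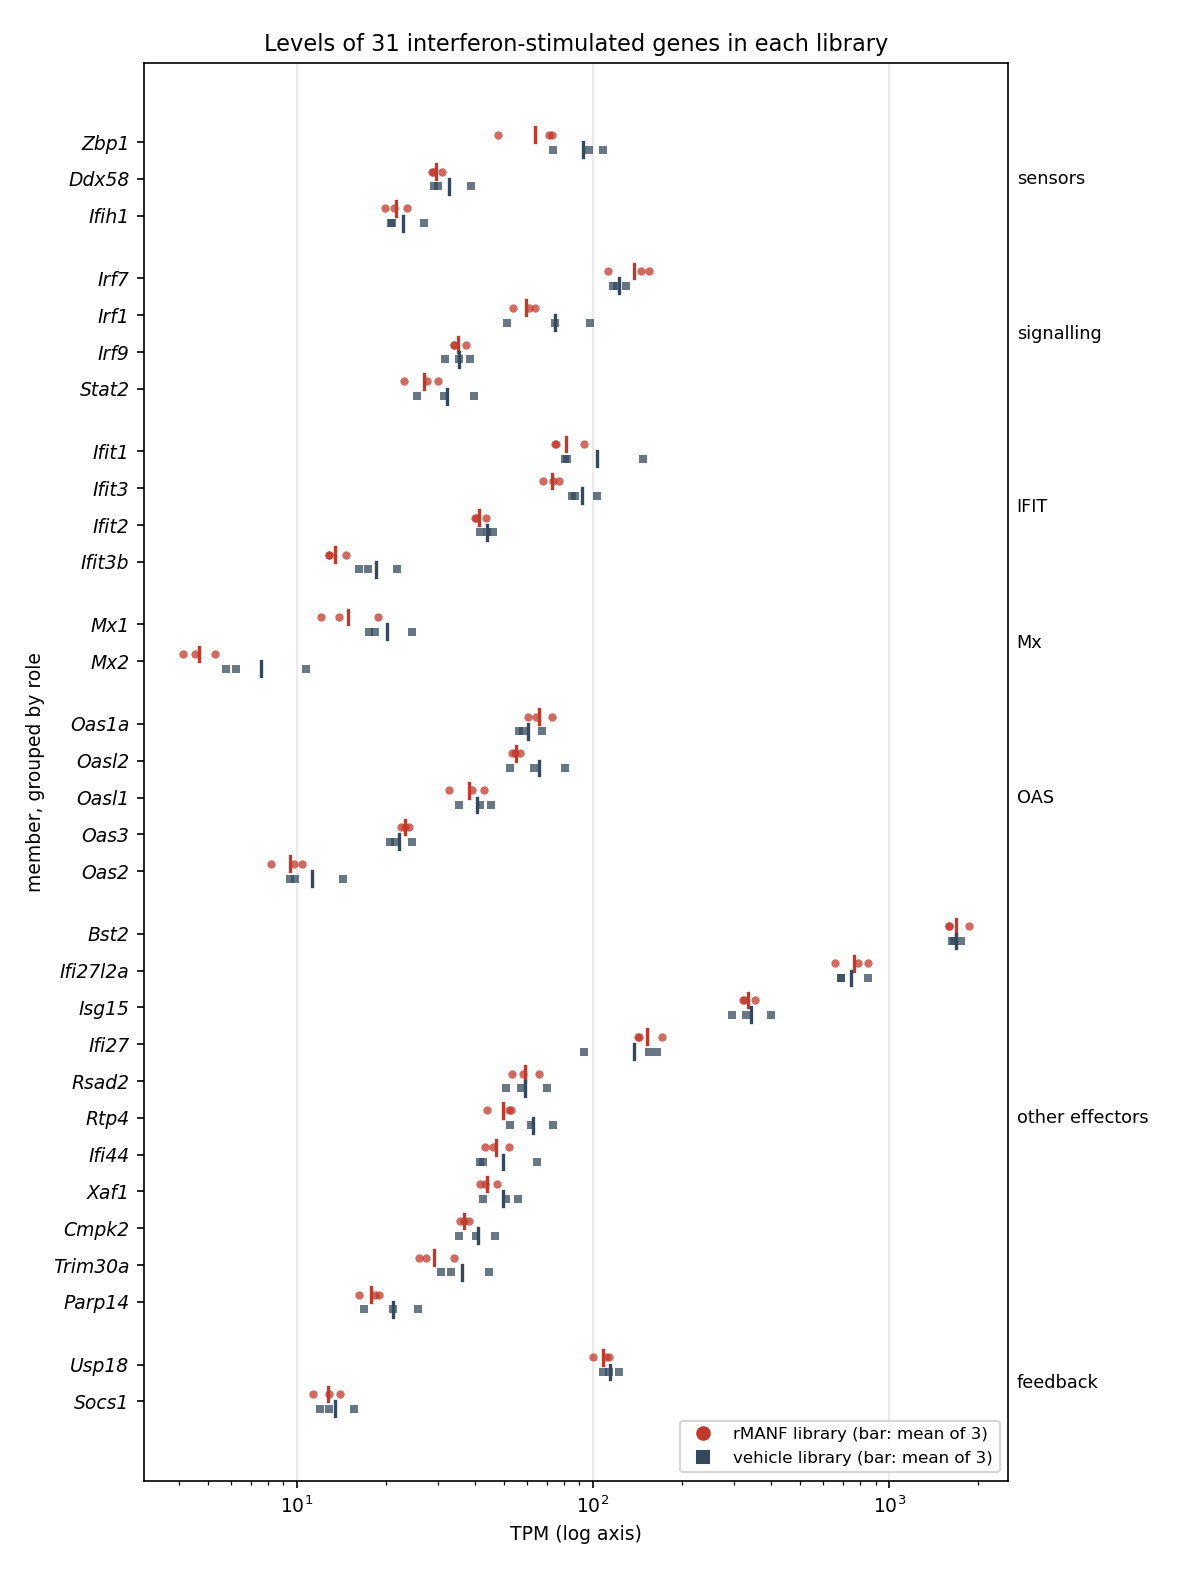
TPM of each member on a log axis, with 3 rMANF libraries (circles) above 3 vehicle libraries (squares) and bars at the group means, members grouped by role. Levels run from about 4.14 TPM (Mx2) to 1856 TPM (Bst2), a spread far wider than that between libraries of 1 member.

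Among the sensors Zbp1 lay lower. Zbp1, which recognises Z-form nucleic acid and can start necroptosis, measured 72.7, 71.2 and 47.8 TPM in rMANF libraries, against 96.8, 108 and 73.1 TPM in vehicle libraries. The groups did not overlap, although rMANF replicate 1 and vehicle replicate 3 came within less than 1 TPM, and the log2 difference was −0.54 ± 0.20 (SE; limma, adjusted p = 0.182). It was −0.34 without rMANF replicate 3 and −0.31 with library weights. Ddx58, which encodes the RNA sensor RIG-I, measured 30.9, 28.6 and 28.7 TPM in rMANF libraries, against 38.7, 30.1 and 29.0 TPM in vehicle libraries, and vehicle replicate 1 alone stood out. Its log2 difference was −0.13, and −0.005 without that library. Ifih1, the gene of the long double-stranded RNA sensor MDA5, had the same shape, with 19.9 to 23.5 TPM in rMANF libraries, against 26.96 TPM in vehicle replicate 1 and at least 20.8 TPM in the other vehicle libraries. Without vehicle replicate 1 the log2 difference of Ifih1 was 0.04.

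The signalling members did not differ beyond their spread, and Irf7 stood on the other side of 0 from the rest. Irf7, the factor that amplifies interferon alpha production, measured 155, 145 and 113 TPM in rMANF libraries, against 117, 120 and 129 TPM in vehicle libraries, with rMANF replicate 3 lowest of all 6 (log2 difference 0.16 ± 0.12; limma, adjusted p = 0.521). Without rMANF replicate 1 it was 0.06, and without rMANF replicate 3 it was 0.29. Stat2 measured 29.9, 27.6 and 23.1 TPM in rMANF libraries, against 39.7, 31.3 and 25.5 TPM in vehicle libraries (−0.24 ± 0.17; limma, adjusted p = 0.464), and the difference was −0.08 without vehicle replicate 1. Irf9, its partner in ISGF3, spanned only 31.7 to 38.4 TPM over all 6 libraries, with a log2 difference of −0.01. Irf1, a factor strongly induced by interferon gamma, measured 61.0, 63.8 and 53.8 TPM in rMANF libraries, against 74.4, 97.7 and 51.2 TPM in vehicle libraries. The vehicle libraries thus held both the highest and the lowest Irf1 value, and the difference was −0.27 ± 0.21 (limma, adjusted p = 0.502). It was −0.06 without vehicle replicate 2, and weighting the libraries by their fit turned it to 0.04.

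The Ifit genes, whose products bind foreign RNA ends and restrain translation, form a cluster on chromosome 19 (34550694 to 34650009, GRCm38) and all 4 lay lower. Ifit3b measured 14.6, 12.9 and 12.8 TPM in rMANF libraries, against 21.8, 16.2 and 17.4 TPM in vehicle libraries, without overlap. Its log2 difference of −0.43 ± 0.13 had the lowest adjusted p of all members (limma, adjusted p = 0.139). Ifit3 measured 76.9, 73.1 and 68.0 TPM in rMANF libraries, against 103, 86.8 and 84.7 TPM in vehicle libraries, again without overlap (−0.33 ± 0.10; limma, adjusted p = 0.146). Exact two-sided permutation tests gave p = 0.1 for Mx2, Zbp1, Ifit3b and Ifit3, the smallest p that 3 against 3 libraries allow. Groups that do not overlap always give this p, so it only restates their separation. The values of Ifit3 and Ifit3b are not independent, since 61.8% of the 31-base words in Ifit3 transcripts also occur in Ifit3b and 54.1% of those in Ifit3b occur in Ifit3, so the split of reads between them is uncertain.

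Ifit1 and Ifit2, at the other positions of the cluster, did not separate the groups. Ifit1 measured 74.3, 75.2 and 93.3 TPM in rMANF libraries, against 147, 81.9 and 80.2 TPM in vehicle libraries, so that vehicle replicate 1 stood alone. Its log2 difference was −0.29 ± 0.23 (limma, adjusted p = 0.506), and −0.01 without vehicle replicate 1. Ifit2 was the steadiest of the 31 members, at 40.2, 43.4 and 39.9 TPM in rMANF libraries, against 43.8, 41.4 and 46.1 TPM in vehicle libraries. The highest library exceeded the lowest by 1.16 times for Ifit2, and by 1.98 times for Ifit1.

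The Mx genes, neighbours on chromosome 16 (97447035 to 97560900), encode dynamin-like GTPases that block virus replication. C57BL/6 mice, like most inbred laboratory strains, are known to make no functional Mx protein from either gene, so their transcripts serve as a record of induction. Mx2 measured 4.54, 4.14 and 5.30 TPM in rMANF libraries, against 10.8, 6.25 and 5.75 TPM in vehicle libraries, the lowest level of the members (log2 difference −0.56 ± 0.22; limma, adjusted p = 0.203). Without vehicle replicate 1 it was −0.31, where that of Zbp1 was −0.50. Mx1 measured 18.8, 13.9 and 12.03 TPM in rMANF libraries, against 24.5, 17.5 and 18.3 TPM in vehicle libraries. Here rMANF replicate 1 lay above vehicle replicates 2 and 3, so the groups overlapped (−0.41 ± 0.18; limma, adjusted p = 0.253). The Mx1 difference was −0.27 without vehicle replicate 1.

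The Oas genes make oligoadenylate that activates RNase L, and 5 related members lay in 2 clusters on chromosome 5 (114896936 to 114937915 and 120730333 to 120907521). They did not share a direction. Oas1a measured 72.9, 64.1 and 60.6 TPM in rMANF libraries, against 58.2, 67.0 and 56.4 TPM in vehicle libraries, a log2 difference of 0.12 ± 0.11 (limma, adjusted p = 0.568). Its values are uncertain, since 68.7% of its 31-base words also occur in its neighbour Oas1g. Oas3 and Oas2 in the same cluster differed by 0.07 ± 0.10 and −0.21 ± 0.17, and by 0.14 and −0.04 without vehicle replicate 1. In the other cluster Oasl2 differed by −0.23 ± 0.15, with vehicle replicate 1 at 80.5 TPM and the other 5 libraries between 52.6 and 63.2 TPM, and by −0.07 without that library. Oasl1, a translational brake on Irf7 in mice, differed by −0.09 ± 0.13 and turned to 0.01 without rMANF replicate 2.

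The other effectors overlapped between groups. Rtp4, a receptor trafficking protein, measured 52.0, 52.9 and 43.9 TPM in rMANF libraries, against 73.5, 61.7 and 52.5 TPM in vehicle libraries. The groups touched at rMANF replicate 2 and vehicle replicate 3, and the log2 difference was −0.32 ± 0.14 (limma, adjusted p = 0.236). Trim30a, which dampens Toll-like receptor signalling in mice, and Parp14, an ADP-ribosyltransferase, differed by −0.30 ± 0.16 and −0.22 ± 0.15. Without vehicle replicate 1 the differences of Rtp4, Trim30a and Parp14 were −0.20, −0.14 and −0.08. Xaf1, an antagonist of the apoptosis inhibitor XIAP, differed by −0.16 ± 0.12, and by −0.08 without vehicle replicate 2. For these 4 genes the lowest vehicle value still fell inside the rMANF range.

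Members that adjoin in the genome are described together. Rsad2, which encodes viperin, and Cmpk2, a mitochondrial nucleotide kinase, adjoin on chromosome 12 (26442746 to 26479837) and differed by 0.004 ± 0.13 and −0.14 ± 0.11. Without vehicle replicate 1 they differed by 0.13 and −0.04. The Rsad2 difference turned to −0.05 under median-of-ratios scaling, −0.06 under quantile normalization and −0.01 after rescaling without mitochondrially encoded and haemoglobin genes. Ifi27 and Ifi27l2a also adjoin on that chromosome (103434211 to 103443680). Ifi27 measured 142, 143 and 171 TPM in rMANF libraries, against 93.4, 165 and 154 TPM in vehicle libraries, so that vehicle replicate 1 was by far the lowest. Its difference of 0.18 ± 0.20 (limma, adjusted p = 0.668) turned to −0.08 without that library. Ifi27l2a differed by 0.04 ± 0.13, which median-of-ratios scaling turned to −0.01. Ifi44 differed by −0.05 ± 0.17, and by 0.15 without vehicle replicate 1. Isg15 differed by −0.02 ± 0.12, which quantile normalization turned to 0.02.

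Both feedback members overlapped between groups. Usp18, which removes Isg15 from proteins and blocks signalling at Ifnar2, measured 113, 100 and 110 TPM in rMANF libraries, against 113, 122 and 108 TPM in vehicle libraries (log2 difference −0.09 ± 0.09; limma, adjusted p = 0.617). Socs1, an inhibitor of the Jak kinases, measured 14.01, 12.8 and 11.3 TPM in rMANF libraries, against 11.97, 15.6 and 12.9 TPM in vehicle libraries (−0.08 ± 0.13; limma, adjusted p = 0.787). Only vehicle replicate 2 exceeded the rMANF values of Socs1, and the difference was 0.03 without it.

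The members did not stand at like levels within the vehicle group. Vehicle replicate 1 was the highest of the 6 libraries for 19 of 31 members (61.3%), against 33% of all tested genes, and vehicle replicate 2 for 7 members (22.6%), against 10.9%. Vehicle replicate 3 was highest for 1 member, against 8.43% of all tested genes, and rMANF replicates 1, 2 and 3 for 3, 0 and 1 members, against 12.7%, 24.9% and 10.1%. The 7 were Irf1, Zbp1, Xaf1, Isg15, Socs1, Oasl1 and Usp18. At the other end, rMANF replicate 3 was the lowest for 14 members (45.2%), against 19.8% of all tested genes, and vehicle replicate 3 for 7 (22.6%), against 8.6%. The lowest value lay in vehicle replicate 2 for 1 member, where 37.7% of all tested genes had theirs. For the other 9 members it lay in rMANF replicates 1 or 2 or in vehicle replicate 1, the lowest libraries of 10.6%, 6% and 17.2% of all tested genes. The median deviation of the members from their gene means was −0.02, −0.06 and −0.12 in rMANF replicates 1, 2 and 3 and 0.27, 0.06 and −0.07 in vehicle replicates 1, 2 and 3. By this median vehicle replicate 3 lay within the range of the rMANF libraries. For single members it could lie outside, above all rMANF libraries for Ifit2 and below all of them for Oas3.

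Some other measures stood apart in the same libraries, and some did not. Ifnb1, the gene of interferon beta, was listed at 0.866, 0.695 and 0.883 TPM in rMANF libraries, against 2.77, 0.996 and 0.512 TPM in vehicle libraries, highest where 19 members peaked. Ifng, the gene of interferon gamma, was listed at 1.20, 0.856 and 0.608 TPM in rMANF libraries, against 1.37, 3.92 and 1.17 TPM in vehicle libraries, highest in vehicle replicate 2. Vehicle replicate 1 also had the highest summed neutrophil markers, 8 of 10 with rows, at 213 TPM, with 18.2 to 37.6 TPM in rMANF libraries and 24.3 to 43.0 TPM in the other vehicle libraries. Its summed B cell markers (45.5 TPM) and fibroblast markers (452 TPM) were the highest of all 6 libraries too. Endothelial markers went the other way between groups, with sums of 188 to 213 TPM with rMANF and 146 to 177 TPM with vehicle. Vehicle replicate 2 had the highest summed T and NK cell markers, 15 of 15 with rows, at 133 TPM, with 25.0 to 47.5 TPM in rMANF libraries and 52.0 to 73.3 TPM in the other vehicle libraries. For rMANF replicate 3, the macrophage sum (2305 TPM) and the T and NK sum (25.0 TPM) were the lowest of all 6. Among vehicle libraries the macrophage sum did not follow the members. It was lowest in replicate 1 (3955 TPM), where 19 members peaked, and was 4388 TPM in replicate 3. Summed erythroid markers were highest of all 6 in vehicle replicate 3 (682 TPM) and lowest in vehicle replicate 1 (196 TPM). The 10 plasmacytoid dendritic cell markers summed to 1646 to 1918 TPM in rMANF libraries and 1718 to 1817 TPM in vehicle libraries. Nearly all of that sum was Bst2, itself a member, and 4 of the 10, Siglech, Ccr9, Pacsin1 and Klk1, averaged under 1 TPM. The part of these cell types and ligands in the member values was not tested.

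**Figure D3:**
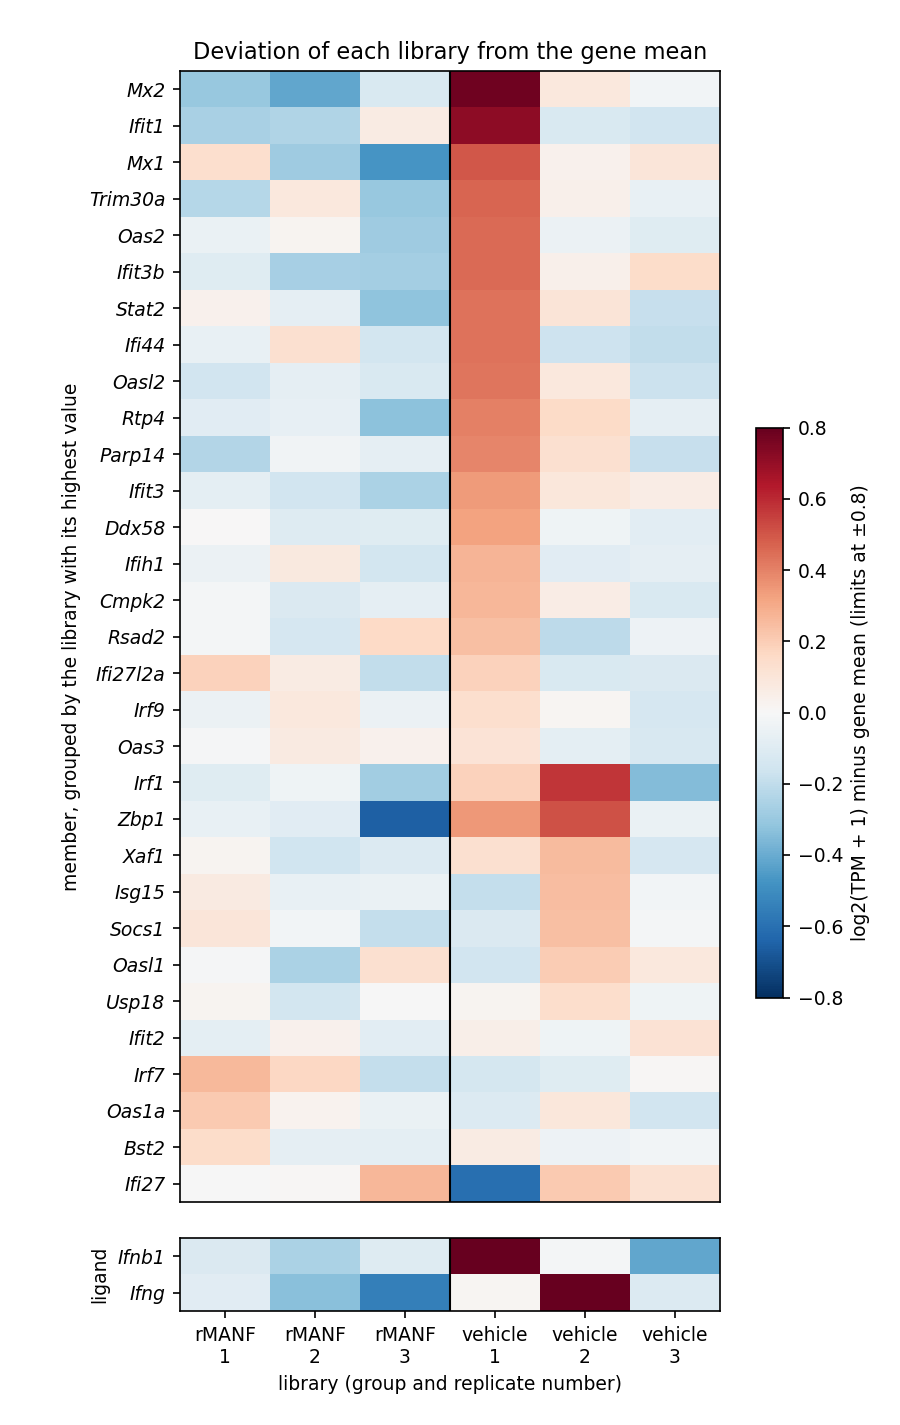
Colour gives the log2(TPM + 1) of each library minus the gene's mean over 6 libraries, rMANF left of vehicle, with members grouped by the library that held their highest value and the ligands Ifnb1 and Ifng below; colours saturate at 0.8 either way. Vehicle replicate 1 is highest for 19 members and vehicle replicate 2 for 7.

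With vehicle replicate 1 left out, 22 members lay lower and 9 higher, and 36.5% of all tested genes lay lower. The median over members was −0.08, against 0.08 over all tested genes. With vehicle replicate 2 left out 25 members lay lower, against 50.1% of all tested genes, and the medians were −0.14 and −0.001. With vehicle replicate 3 left out 27 lay lower, against 43.7% of all tested genes, and the medians were −0.21 and 0.04. The distance between the median of the members and that of all tested genes had the same sign in each of these fits. The fits share most of their libraries, so the like signs are not independent of one another. Weighting the libraries gave vehicle replicates 1 and 2 weights of 0.277 and 0.538 and vehicle replicate 3 a weight of 3. With these weights 19 members lay lower, against 41.7% of all tested genes, and the medians were −0.01 and 0.04.

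**Figure D4:**
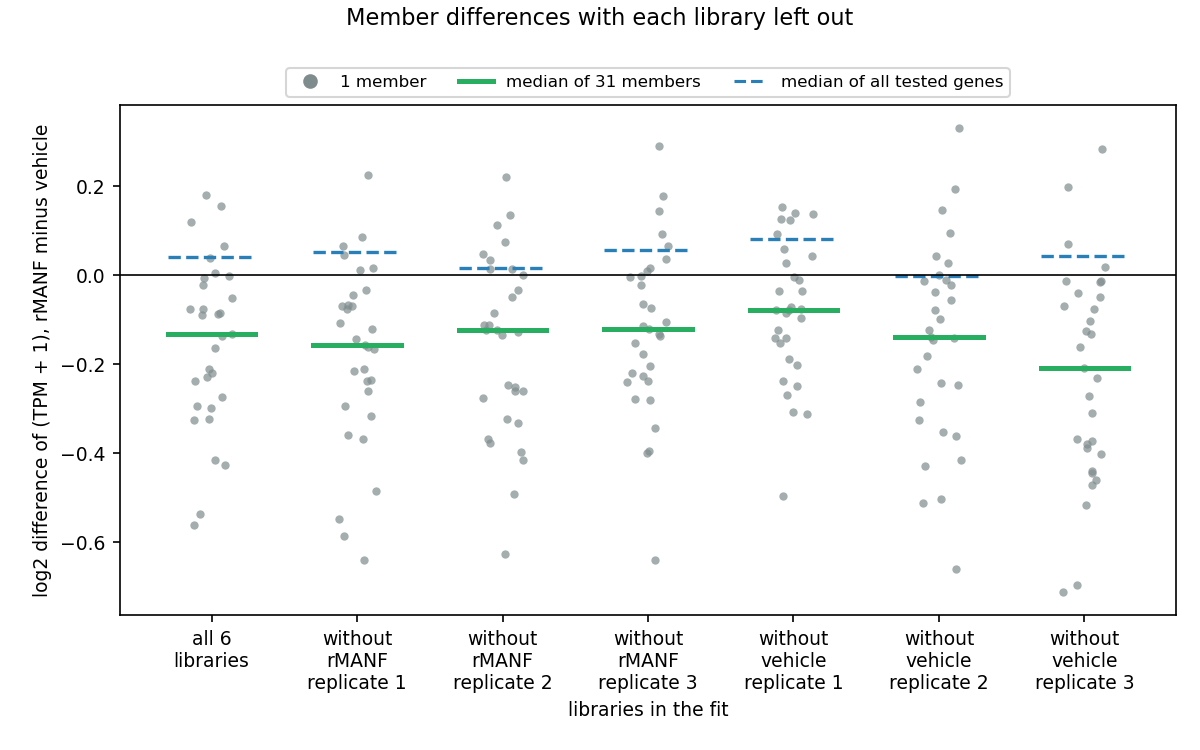
Points are the 31 member differences (log2 of TPM + 1, rMANF minus vehicle) in the fit of all 6 libraries and in the 6 fits that left out 1 library; solid bars are their medians and dashed bars the medians of all tested genes. The member median stays below that of all tested genes throughout and is nearest 0 without vehicle replicate 1 (−0.08).

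Upstream of the members, the ligand transcripts with a row were scarce and receptors moderate. The level of ligand genes without a row is unknown. Of 21 interferon ligand genes 4 had rows, and besides Ifnb1 and Ifng these were Ifna4, at most 0.308 TPM, and Ifnz, at most 0.201 TPM, both listed at 0 in at least 1 library of each group. Ifnb1 and Ifng differed by −0.31 (limma, adjusted p = 0.649) and −0.65 (adjusted p = 0.313). Among 8 tested receptors and kinases 0 passed limma's threshold and 2, Tyk2 and Il10rb, had an unadjusted p under 0.05, a share of 25%, near the 20.5% of all tested genes. Ifnar1 averaged 27.01 ± 2.33 TPM with rMANF and 25.2 ± 1.47 TPM with vehicle, and Ifnar2 averaged 20.8 ± 1.34 TPM with rMANF and 24.0 ± 1.70 TPM with vehicle (SD, n = 3 each). The interferon gamma receptor genes Ifngr1 and Ifngr2 differed by −0.01 and −0.18. Ifnlr1, of the interferon lambda receptor, reached at most 0.0803 TPM.

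The kinase gene Tyk2 measured 8.83, 8.42 and 7.65 TPM in rMANF libraries, against 5.67, 5.64 and 6.92 TPM in vehicle libraries, without overlap (log2 difference 0.40; limma, adjusted p = 0.145). Jak1 differed by 0.22 and Jak2 by −0.21 (limma, adjusted p = 0.331 and 0.522). Il10rb, a chain shared by the receptors for interleukin 10 and interferon lambda, lay lower at 19.6, 21.2 and 16.9 TPM in rMANF libraries, against 25.4, 26.8 and 24.9 TPM in vehicle libraries (−0.40; limma, adjusted p = 0.116).

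Of the transcription factors that are not members, Stat3, Irf2, Irf3, Irf5 and Irf8 differed by 0.13, 0.06, 0.15, −0.33 and −0.06, with adjusted limma p-values between 0.327 and 0.878.

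In the wider pathway directions were mixed, and limma called 0 of 107 tested genes. Of 17 tested genes of nucleic acid sensing 9 (52.9%) lay lower and 8 higher (median −0.14), where 42.7% of all tested genes lay lower. The RNA-editing enzyme gene Adar, the endosomal receptor gene Tlr3 and the RIG-I adaptor gene Mavs had the smallest p and differed by 0.27, −0.35 and 0.25. Of 11 tested brakes on the pathway 7 (63.6%) lay lower and 4 higher, beside the same 42.7%. Nlrx1, a mitochondrial inhibitor of Mavs, the phosphatase gene Ptpn11 and the haematopoietic phosphatase gene Ptpn6 differed by 0.43, 0.32 and −0.36. All of these had adjusted p-values of 0.155 or more (limma).

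A further 63 tested interferon-stimulated genes that are not members were counted in the same way. Of these 41 (65.1%) lay lower, against 42.7% of all tested genes, and 22 higher. Their median was −0.16, against 0.04 over all tested genes. The groups did not overlap for 17 genes. Of the 17, 13 (20.6% of the 63) lay lower and 4 (6.35%) higher with rMANF, against 9.02% and 18.9% of all tested genes. The 63 are known interferon targets too, and no test of the list was made. Epsti1, an interferon response gene of stromal and immune cells, had the smallest p, at 12.3 to 19.3 TPM in rMANF libraries, against 23.7 to 27 TPM in vehicle libraries (−0.67; limma, adjusted p = 0.0997). Phf11b and Phf11a, which encode PHD finger proteins, differed by −0.46 and −0.51 (limma, adjusted p = 0.120 and 0.134).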

How the data were processed

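The build mm10 and the tools HTSeq 0.11.0, Salmon 0.14.1, fastp and cutadapt are named per the submitters' processing notes; the sources used here give neither their roles nor the annotation or filters. The Nextera XT kit, per the labels' protocols, was used for library preparation, and does not keep strand. The authors deposited log2 TPM per gene and library, with no offset, and −9 for 0 TPM. TPM is a share of each library, so sequencing depth is unknown and no counting interval was computed.

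TPM values were restored and differences taken as rMANF minus vehicle of log2(TPM + 1), a scale that makes differences of low genes too small. Genes averaging 1 TPM or more, 12865 in all and with all 31 members among them, entered 1 limma fit (limma 3.58.1, R 4.3.3, mean trend, no covariates); its two-sided p-values were adjusted over all of these genes by Benjamini and Hochberg's method, with a threshold of 0.05. Exact permutation tests used all 20 assignments. The labels call libraries biological replicates, and p-values measure the spread between them. The procedure was tested on simulated data in which genes varied independently and planted changes were larger than any member difference. That test does not show how well differences as small as those of the members are found.

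Members and lists were chosen with earlier results of these data known. All members are described; of the pathway, ligands, receptors, kinases and STAT and IRF factors are named (1 item is not reported here), and for other lists the 3 tested genes of smallest p. Members discussed with values in every library, and the promoters shown, were chosen after values were seen. Listed genes without a row were not analysed here. Coordinates of genes and transcript words of 31 bases came from GENCODE M21 (GRCm38, the assembly named mm10). Alternatives were other pseudocounts (0.1 and 5 TPM), filters (none, 5 TPM), 3 scalings, variance settings, library weights, a replicate block, a threshold of 0.10 and each library left out.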

Additional observations from a re-analysis of the deposited data

How the results depend on the processing

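Limma called 0 members under every alternative tried, the threshold of 0.10 included. Over all tested genes it called 737 with library weights, 351 at a threshold of 0.10, and 0 to 4 when 1 library was left out. With the replicate block it called 3 of all genes and 0 members. Same-numbered libraries of the groups did not deviate together (correlations of deviations −0.07, 0.03 and 0.05 for numbers 1, 2 and 3), so the numbers were not taken to pair them, and vehicle replicate 1 correlated best with rMANF replicate 3 (0.10). The number of members with all rMANF values below all vehicle values was 7 under quantile normalization and 4 to 11 when 1 library was left out. The median over members stayed below 0, between −0.21 and −0.01.

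Of the 31 member differences, 19 kept their sign under all 18 alternatives, 16 of them below 0 and 3 above (Oas3, Oas1a and Irf7). The filters, variance settings, replicate block and threshold of 0.10 leave the differences themselves unchanged, so they could not turn a sign. The sign turned under median-of-ratios scaling for Rsad2 (−0.048) and Ifi27l2a (−0.015), under quantile normalization for Isg15 (0.019) and Rsad2 (−0.063), and after rescaling without mitochondrially encoded and haemoglobin genes for Rsad2 (−0.014). With library weights it turned for Irf1 (0.041), Cmpk2 (0.005), Ifih1 (0.007), Ifi44 (0.111), Irf9 (0.087) and Bst2 (0.030). With 1 library left out, differences ran from −0.077 to 0.058 for Irf9, −0.044 to 0.144 for Ifi27l2a, −0.188 to 0.014 for Oasl1, −0.124 to 0.095 for Isg15, −0.076 to 0.036 for Bst2, −0.161 to 0.154 for Ifi44, −0.099 to 0.127 for Rsad2, −0.138 to 0.042 for Ifih1, −0.076 to 0.33 for Ifi27 and −0.152 to 0.027 for Socs1. The cause was not tested. The 95% interval of the steadiest member, Ifit2, ran from −0.28 to 0.11, and those of all other members were wider; depth is unknown.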
